A study of Mus musculus with 4 samples.

Results

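TIGIT, CD226 and CD96 form a small receptor group on T cells and NK cells, and their transcripts were followed here through 4 RNA-seq libraries of human CD8+ T cells. The members were the rows whose symbol in the deposited files equals one of these names, which gave 3 of 59490 genes used. The cells were CD8+ T cells with high CD11a, the integrin chain of antigen-experienced T cells, sorted by flow cytometry from the blood of patients on PD-1 antibody therapy. A cycle of that therapy had 4 doses, 3 weeks apart. The study asked how these cells differed before and after therapy according to the response of the patient. The groups were a responder before therapy, a non-responder before therapy, a responder after therapy and a non-responder after therapy, each with 1 library. All 4 share the source in blood and the sort for CD8 and high CD11a, and whether PD-1 was a further gate is not given.

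The labels limit these groups in several ways. They name no patient for a library, so time and patient cannot be told apart in a comparison of before with after therapy. A treatment label places every collection after 1 cycle, whereas the group label places 2 libraries before therapy. The latter was followed. Both titles from before therapy include a PD-1-positive tag, and the sources used here do not say whether PD-1 was a gate in the sort. TIGIT is often found on the same cells as PD-1, and the effect of any such gate on the early TIGIT values cannot be told apart from that of time. The organism field names mouse, but the genes and the build are human.

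The receptors compete for ligands. TIGIT and CD226 both bind PVR, also called CD155, and to a lesser degree NECTIN2, also called CD112, on antigen-presenting and tumour cells. TIGIT carries inhibitory motifs in its tail and holds the stronger grip on PVR, whereas CD226, also called DNAM-1, signals activation together with the integrin LFA-1. CD96, also called TACTILE, binds PVR as well and is mostly described as inhibitory, although activating effects in human CD8 T cells have been described too. The ratio of TIGIT and CD96 to CD226 is therefore a common summary of this group, and here it is a ratio of transcripts, not of receptors on the surface.

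The libraries held 65500644 to 129773591 counts. Levels are counts per 1000000 counts (CPM) after scaling by TMM, a method that aligns libraries on the bulk of their genes, and intervals are at 95% and cover only counting error. With 1 library in each group no difference between 2 libraries has a replicate check, so none of them carries a p-value. The 6 sort markers were present in every library, with CD8A between 865 and 1561 CPM and CD3E between 556 and 751 CPM. Transcripts of other cells were unevenly spread. The 12 monocyte markers summed to 216 CPM (responder) and 294 CPM (non-responder) before therapy, and to 1963 and 9104 CPM after it. The 9 platelet markers summed to 46.5 and 86.1 CPM before therapy and to 28.2 and 213 CPM after therapy, and the 8 dendritic cell markers lay at 2.46, 3.11, 5.50 and 71.1 CPM in the same order. Monocytes and platelets can express CD226. In bulk RNA, fewer cells of a type and less RNA per cell cannot be told apart.

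TIGIT (ENSG00000181847, hg38 chromosome 3, 114276913 to 114310288) was higher in the responder library at both times. It stood at 159.8 CPM in the responder (13306 counts, interval 157 to 163) and 60.5 CPM in the non-responder (3943 counts, interval 58.6 to 62.4) before therapy. After therapy it stood at 230.1 CPM in the responder (29318 counts, interval 227 to 233) and at 41.9 CPM in the non-responder (4694 counts, interval 40.7 to 43.2). Both responder libraries thus lay above both non-responder libraries, and the highest and lowest of the 4 levels were the 2 libraries from after therapy. Before therapy the responder had 2.64 times the level of the non-responder (log2 ratio 1.40, interval 1.35 to 1.45), and after therapy 5.49 times (log2 ratio 2.46, interval 2.41 to 2.50). Among genes that reached 5 CPM in 1 or both libraries of a pair, the ratio of TIGIT ranked 776 of 12361 from the highest before therapy and 60 of 12434 after therapy. The gap between the responder and the non-responder was 1.05 log2 units wider after therapy than before.

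**Figure D1:**
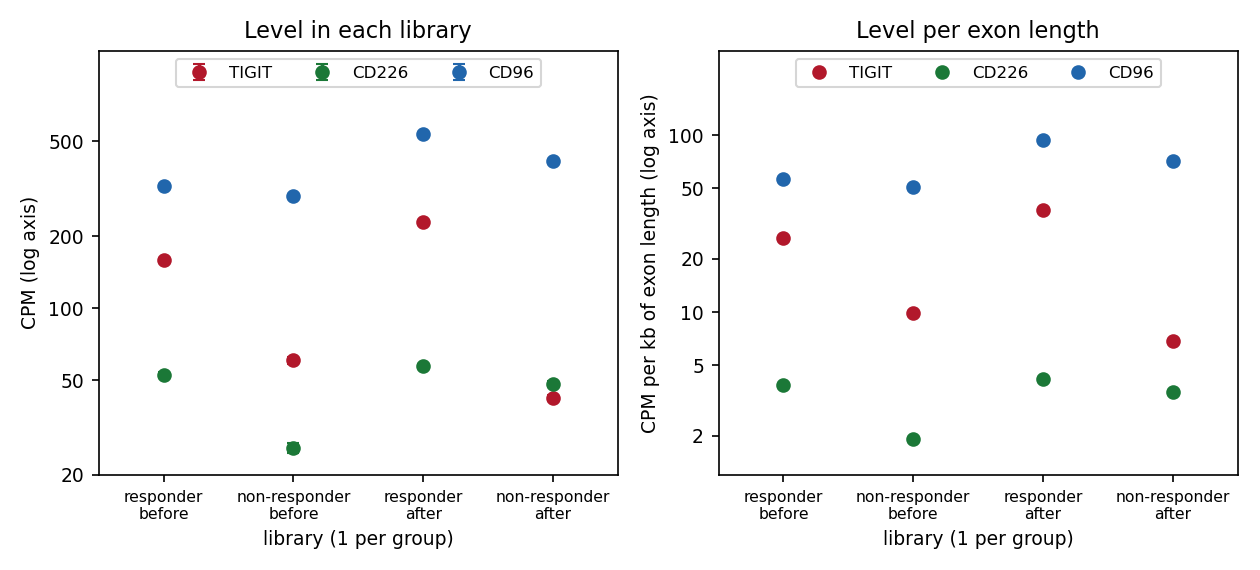
Level of TIGIT, CD226 and CD96 in each of the 4 libraries, as CPM on the left and as CPM per kb of exon length on the right, both on log axes, with 1 point per gene and library. Bars on the left are 95% intervals for counting error and are mostly smaller than the points. TIGIT in both responder libraries, at 159.8 and 230.1 CPM, lies above both non-responder libraries, while the 4 points of CD96 stay between 295 and 538 CPM.

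Over time TIGIT went in opposite directions in the 2 response classes. In the responder libraries it was 1.44-fold higher after therapy (log2 ratio 0.53, interval 0.50 to 0.56), and in the non-responder libraries it was 1.44-fold lower after therapy (log2 ratio -0.53, interval -0.59 to -0.47). Whether these 2 differences differ beyond the spread between patients was not tested, since no group has a second library. The non-responder library from after therapy, with the lowest TIGIT, also had the highest monocyte, platelet and dendritic marker levels, and their part in its TIGIT level was not tested. Summed regulatory T cell markers, at 56.3 and 45.6 CPM in the responder and non-responder before therapy and 57.1 and 30.7 CPM after it, had the same order over the 4 libraries as TIGIT, which such cells express. Their part in the TIGIT level was not tested either.

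CD226 (ENSG00000150637, hg38 chromosome 18, 69831158 to 69961803), the activating partner, was lowest in the non-responder library before therapy. Its levels were 52.5 CPM in the responder (4367 counts, interval 50.9 to 54) and 26.0 CPM in the non-responder (1698 counts, interval 24.8 to 27.3) before therapy. After therapy the responder stood at 57.2 CPM (7289 counts, interval 55.9 to 58.5) and the non-responder at 48.0 CPM (5374 counts, interval 46.7 to 49.3). Of the 4 libraries, 3 therefore lay between 48.0 and 57.2 CPM, and the non-responder before therapy stood below them. The responder level was 2.01-fold that of the non-responder before therapy (log2 ratio 1.01, interval 0.93 to 1.09), which is at the edge of the 2-fold mark. After therapy it was 1.19-fold higher (log2 ratio 0.25, interval 0.20 to 0.30). In the non-responder libraries CD226 was 1.84-fold higher after therapy (log2 ratio 0.88, interval 0.80 to 0.96), and in the responder libraries 1.09-fold higher (log2 ratio 0.13, interval 0.07 to 0.18). Monocyte markers in the non-responder libraries went from 294 to 9104 CPM in sum, and platelet markers from 86.1 to 213 CPM, and their part in the CD226 level was not tested.

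CD96 (ENSG00000153283, hg38 chromosome 3, 111292719 to 111665750) was the most abundant of the 3. Between responder and non-responder it was the least different before therapy, whereas after therapy CD226 was. It stood at 326 CPM in the responder (27162 counts, interval 322 to 330.1) and 295 CPM in the non-responder (19247 counts, interval 291 to 299) before therapy. After therapy the responder library held 538 CPM (68493 counts, interval 534 to 542) and the non-responder library 414 CPM (46311 counts, interval 410 to 418). Both libraries from after therapy lay above both from before therapy. Before therapy the responder had 1.11 times the level of the non-responder (log2 ratio 0.14, interval 0.12 to 0.17), and after therapy 1.30 times (log2 ratio 0.38, interval 0.36 to 0.39). Over time CD96 was 1.65-fold higher after therapy in the responder libraries (log2 ratio 0.72, interval 0.70 to 0.74) and 1.40-fold higher in the non-responder libraries (log2 ratio 0.49, interval 0.46 to 0.51).

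Set against all genes, TIGIT and CD226, 2 of the 3 members, passed 2-fold on the responder side before therapy, where 11.5% of 12361 genes that reached 5 CPM were that much higher and 8.92% that much lower. After therapy TIGIT was the 1 member at least 2-fold higher, beside 5.79% of 12434 genes, and no member was at least 2-fold lower, beside 8.85%. Over time no member reached 2-fold in either direction. The background there was 8.50% higher and 4.69% lower of 12265 genes in the responder libraries, and 15.6% higher and 8.25% lower of 12641 genes in the non-responder libraries.

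The scaling decides the sign of the smaller differences. When libraries were scaled by the summed counts of CD3D, CD3E, CD3G, CD8A and CD8B instead, all responder against non-responder ratios shifted by -0.29 before and -0.49 after therapy on the log2 scale, and those of after against before by -0.06 in the responder and 0.14 in the non-responder. TIGIT kept its direction in all 4 pairs, with log2 ratios of 1.11 before and 1.96 after therapy for response, 0.47 over time in the responder and -0.39 in the non-responder. CD226 then stood at 0.72 before and -0.24 after therapy, and CD96 at -0.15 and -0.12, so the signs of CD96 at both times and of CD226 after therapy turned. On that scale the genes at least 2-fold higher were 31.0% of all genes at least 2-fold apart before therapy, against 56.2% under TMM, and 7.70% after therapy, against 39.5%. Before therapy 862 of 12355 genes at 5 CPM were at least 2-fold higher and 1921 lower on that scale. After therapy 198 of 12631 were higher and 2375 lower. The median log2 ratio of all genes was -0.25 before and -0.45 after therapy on that scale. With library size alone, the share of higher genes among those 2-fold apart was 51.6% over time in the responder libraries, against 64.4%. The CD226 log2 ratio in that pair was 0.02.

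**Figure D2:**
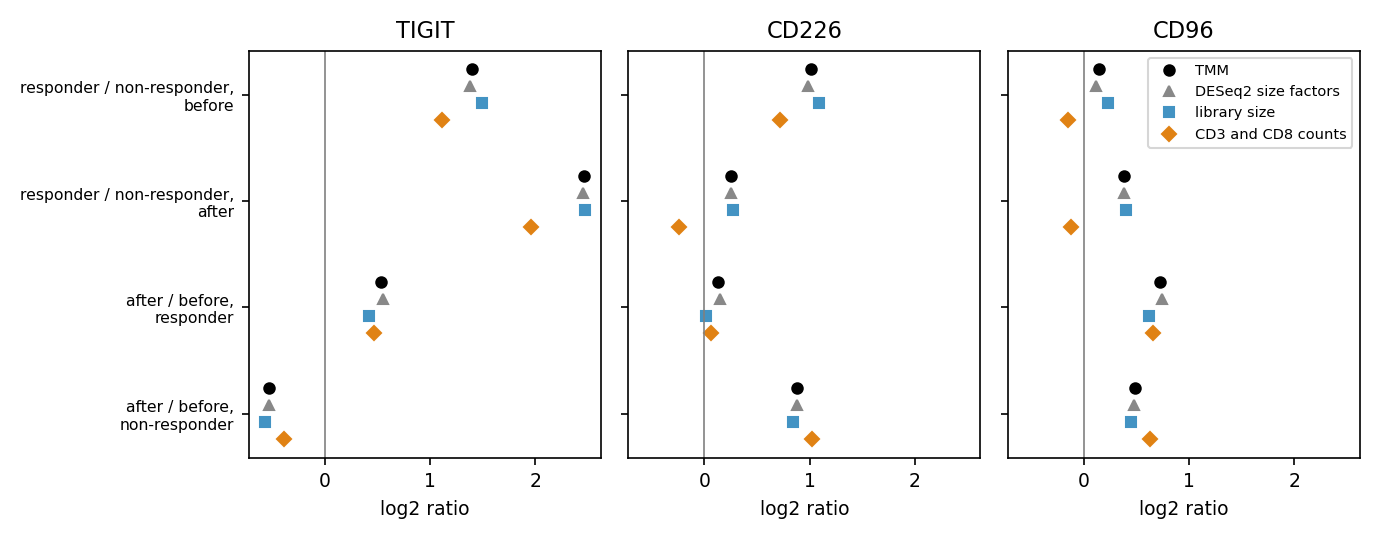
Log2 ratio of TIGIT, CD226 and CD96 in the 4 pairs of libraries under 4 ways of scaling, with 1 marker per scaling and a grey line at 0. Every marker of TIGIT stays on its side of 0, whereas scaling by CD3 and CD8 counts moves CD96 to -0.15 before and -0.12 after therapy and CD226 to -0.24 after therapy.

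Per length, CD96 was the most abundant of the 3 transcripts and CD226 the least in every library. The files give lengths of 6091 bases for TIGIT, 13638 for CD226 and 5762 for CD96, which are exon lengths with untranslated parts. The level per kb of exon length was 51.2 to 93.3 CPM for CD96, 6.89 to 37.8 CPM for TIGIT and 1.91 to 4.19 CPM for CD226. The order held in each library, but the step between TIGIT and CD226 ranged from 9.01-fold per length in the responder after therapy to 1.96-fold in the non-responder after therapy.

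The ratio of TIGIT to CD226 within a library is free of library scaling. In raw counts it was 3.05 in the responder (interval 2.94 to 3.15) and 2.32 in the non-responder (interval 2.19 to 2.46) before therapy. After therapy it was 4.02 in the responder (interval 3.92 to 4.13) and 0.873 in the non-responder (interval 0.840 to 0.909). The non-responder library from after therapy was thus the only one of the 4 with fewer TIGIT than CD226 reads. Before therapy the ratio of the responder was 1.31 times that of the non-responder (log2 0.39, interval 0.30 to 0.49), and after therapy 4.60 times (log2 2.20, interval 2.14 to 2.27). Over time it was 1.32-fold higher after therapy in the responder libraries and 2.66-fold lower in the non-responder libraries (log2 -1.41, interval -1.51 to -1.31).

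The ratio of CD96 to CD226 followed another order. It was 6.22 in the responder and 11.3 in the non-responder before therapy, and 9.40 and 8.62 after therapy. The non-responder before therapy was highest, and that library also had the fewest CD226 reads. The responder ratio was 1.82-fold lower than that of the non-responder before therapy (log2 -0.87, interval -0.95 to -0.78) and 1.09-fold higher after therapy (log2 0.12, interval 0.07 to 0.18).

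Summed over both inhibitory receptors, the ratio to CD226 reversed between the times. TIGIT plus CD96 reads per CD226 read were 9.27 in the responder and 13.7 in the non-responder before therapy, and 13.4 and 9.49 after therapy. The responder ratio was 1.47-fold lower before therapy (log2 -0.56, interval -0.64 to -0.47) and 1.41-fold higher after therapy (log2 0.50, interval 0.45 to 0.55). CD96 made up 60.6% to 82.1% of the reads of the 3 genes, so the summed ratio mostly follows CD96. Its 2 parts did not share an order of the libraries: TIGIT to CD226 was higher in the responder at both times, and CD96 to CD226 only after therapy. TIGIT reads were 29.7% of the reads of the 3 genes in the responder and 15.8% in the non-responder before therapy, and 27.9% and 8.33% after therapy.

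**Figure D3:**
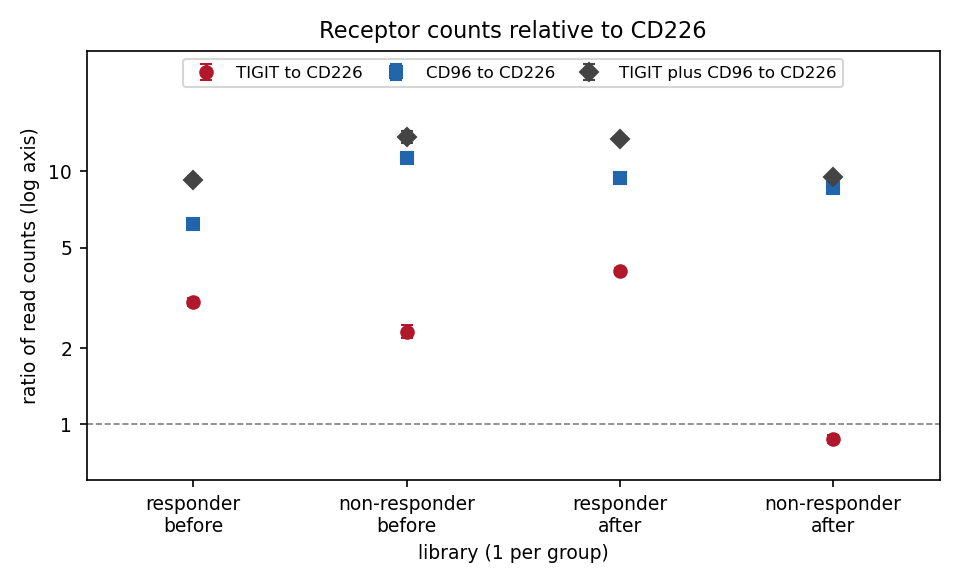
Ratio of TIGIT, CD96 and their sum to CD226 in raw counts in each of the 4 libraries, on a log axis, with 95% intervals for counting error and a dashed line at 1. TIGIT to CD226 is below 1 only in the non-responder library from after therapy, at 0.873, while the summed ratio is 9.27 and 13.7 before therapy and 13.4 and 9.49 after therapy.

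The main test over all 4 libraries, edgeR's quasi-likelihood test, did not call any member. The model has terms for response and for time, sets 2 libraries against 2 in each and leaves 1 residual degree of freedom. Its error is the change of the response ratio between the times. Since no patient is named, both libraries of a response class may come from 1 patient. In edgeR's quasi-likelihood test TIGIT had a log2 ratio of 1.93 ± 0.33 (SE) for response, at an adjusted p of 0.558, and it was higher in the responder in 2 of 2 pairs. The lowest edgeR adjusted p of all 24113 genes for response was also 0.558. CD226 had 0.63 ± 0.29 (edgeR adjusted p = 0.596) and CD96 0.26 ± 0.18 (edgeR adjusted p = 0.696). That test called 0.00% of 24113 genes for response, with 2119 genes at an unadjusted p under 0.05. DESeq2 on the same design called 3.74% of the genes for response and TIGIT among them (log2 ratio 1.91, DESeq2 adjusted p = 1.05e-05), but neither CD226 nor CD96, and limma-voom called none, with TIGIT at an adjusted p of 0.319 and 3007 genes at an unadjusted p under 0.05.

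For time, edgeR's quasi-likelihood test gave CD96 a log2 ratio of 0.60 ± 0.18 (edgeR adjusted p = 0.416) and CD226 0.50 ± 0.29 (edgeR adjusted p = 0.572). TIGIT stood at 0.00 ± 0.37 (edgeR adjusted p = 1), since the ratios of 0.53 and -0.53 in the 2 response classes cancel. The test called 0.00% of 24113 genes for time, with 2732 at an unadjusted p under 0.05, and DESeq2 called 6.26% with none of the 3 members among them. A p-value here measures only the spread between these 4 libraries.

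The ligands were scarce in these cells. PVR, the shared ligand, had 5.64 CPM (responder) and 0.920 CPM (non-responder) before therapy, and 4.22 and 2.89 CPM after it. NECTIN2, listed as PVRL2, stood at 3.13 and 1.70 CPM before therapy and at 0.816 and 4.15 CPM after therapy. The non-responder was thus higher only after therapy. That non-responder library also had the most monocyte marker RNA, and the part of such RNA in the NECTIN2 level was not tested. NECTIN1 and NECTIN3, listed as PVRL1 and PVRL3, lay between 0.212 and 2.50 CPM. NECTIN4, listed as PVRL4 and known as a further TIGIT ligand, had no count in either responder library and 35 and 199 counts in the non-responder libraries. Set against a floor of 3 counts for the responder, the non-responder level was 14.9-fold higher before and 75.5-fold higher after therapy. These values leave out counting error in the non-responder. With it, the 95% interval of the log2 ratio of responder to non-responder ended at -3.52 before and -5.93 after therapy.

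Related receptors were more abundant than the ligands. PVRIG, an inhibitory receptor for NECTIN2, had 119 CPM (responder) and 56.1 CPM (non-responder) before therapy, and 82.6 and 41.7 CPM after it. Its log2 ratio of responder to non-responder was 1.09 before (interval 1.03 to 1.14) and 0.98 after therapy (interval 0.93 to 1.03). For this entry the gap thus stayed near 2-fold where that of TIGIT widened. The related sequence PVRIG2P was listed separately, at 56.5 and 23.3 CPM before therapy and 35.6 and 41.9 CPM after it. A read-through gene that spans PVRIG2P had 229 and 116 CPM before therapy and 160.1 and 188 CPM after it. Both were thus higher in the non-responder after therapy. How reads were split among the 3 entries is not given, so the level of PVRIG and its steady gap are uncertain. In counts, PVRIG to CD226 was 2.27 in the responder and 2.16 in the non-responder before therapy, and 1.44 and 0.869 after therapy, so it too was below 1 in the non-responder after therapy.

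CRTAM, an activation-induced receptor that binds CADM1, stood at 73.3 and 34.1 CPM before therapy and at 69.2 and 52.8 CPM after therapy in the responder and the non-responder. Its log2 ratios of 1.10 before and 0.39 after therapy lie near those of CD226, at 1.01 and 0.25. CADM1 stood at 12.2 and 13.4 CPM before therapy and at 13.6 and 6.06 CPM after therapy. Of the 8 ligands and related receptors, 4 reached 5 CPM in either library before therapy, and 3 of these, PVR, CRTAM and PVRIG, passed 2-fold on the responder side, beside 11.5% of all genes. PVR reached 5 CPM then only in the responder library, at 5.64 against 0.920 CPM, and in neither library after therapy. After therapy 3 reached that level and CADM1 passed 2-fold, beside 5.79%. Scaled by CD3 and CD8 counts, 1 of 4 passed 2-fold on the responder side before therapy, beside 862 of 12355 genes on that scale. After therapy none of 4 did, beside 198 of 12631, and 1 passed on the non-responder side, beside 2375.

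Genes that carry the signals of these receptors lay nearer to equal levels. All 20 signalling partners had at least 5 CPM, with a median log2 ratio of responder to non-responder of 0.12 before and 0.38 after therapy, beside 0.06 and 0.07 for all genes at that level. None was at least 2-fold higher at either time, beside 11.5% of all genes before and 5.79% after therapy. At least 2-fold lower was 1 at each time, beside 8.92% and 8.85%. Scaled by CD3 and CD8 counts, the 2 list medians turned to -0.17 and -0.12, beside -0.25 and -0.45 for all genes on that scale. FYN, a kinase that phosphorylates the tails of both TIGIT and CD226, had 733 CPM (responder) and 470.4 CPM (non-responder) before therapy, and 964 and 520.2 CPM after it. LCK, the kinase bound to CD8, stood at 1284 and 683 CPM, and at 1081 and 663 CPM. PIK3R1, the regulatory subunit of PI3-kinase, went the other way, with 125 CPM in the responder against 407 CPM before therapy and 464 against 718 CPM after therapy. PRKCA, a kinase of the CD226 pathway, had 4.04 CPM (responder) and 8.72 CPM (non-responder) after therapy.

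Among 20 transcription factors of effector, memory and exhausted T cells, 19 reached 5 CPM before therapy and 18 after therapy. Before therapy, 2 passed 2-fold on the responder side, EOMES at 208 against 95.2 CPM and BATF at 55.5 against 25.6 CPM, both named after their values were seen. That is 2 of 19, near the 11.5% of all genes. Neither passed 2-fold when scaled by CD3 and CD8 counts, where 862 of 12355 genes did. BCL6, a repressor tied to follicular and memory fates, passed 2-fold on the non-responder side at both times, with 22.9 against 6.49 CPM early and 60.3 against 20.4 CPM late. It was the 1 factor on that side each time, beside 8.92% and 8.85% of all genes. After therapy IKZF2, also called Helios, stood at 18.8 against 4.20 CPM and NFATC2, a factor driven by calcium signals, at 154 against 66.0 CPM. These were 2 of 18, beside 5.79% of all genes. IKZF2 and TIGIT are both also abundant in regulatory T cells. Of the 8 markers of these cells, 3 reached 5 CPM after therapy and all 3 were higher in the responder, beside 55.1% of all genes. Their median log2 ratio was 1.27: IKZF2 at 2.16, IL2RA at 1.27 and CTLA4 at 0.51. IKZF2 and IL2RA reached 5 CPM then only in the responder library, so their direction partly follows from that filter. FOXP3, the defining factor of regulatory T cells, had 1.61 CPM (responder) and 2.32 CPM (non-responder) after therapy. Before therapy it had 2.02 and 3.68 CPM, so it went the other way. Without IKZF2, the other 7 markers summed to 32.6 and 28.2 CPM before and 38.3 and 26.5 CPM after therapy, a sum chosen after seeing the data. The median log2 ratio of the transcription factors was -0.20 before and 0.23 after therapy. Scaled by CD3 and CD8 counts it was -0.50 and -0.26, beside -0.25 and -0.45 for all genes.

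A part of the other inhibitory receptors was also higher in the responder libraries, more of them before than after therapy. Of 18 such surface proteins, 8 passed 2-fold on the responder side before therapy, beside 11.5% of all genes, and 4 after therapy, beside 5.79%. None passed 2-fold on the non-responder side, although 4 had ratios under 0 after therapy. Scaled by CD3 and CD8 counts, 6 passed on the responder side before therapy, beside 862 of 12355 genes on that scale. After therapy 2 did, beside 198 of 12631, and 1 passed on the non-responder side, beside 2375. The median log2 ratio was 0.81 before and 0.54 after therapy. On that other scale it was 0.51 and 0.05, beside -0.25 and -0.45 for all genes. The 3 with the largest ratio before therapy were nearer to 0 after it: CD200R1 had log2 ratios of 4.98 and 0.99, BTLA of 3.08 and 0.70 and CD101 of 3.07 and 0.57. PDCD1, the gene of PD-1, had log2 ratios of 2.65, from 31.4 and 4.98 CPM, and 1.86, from 28.7 and 7.88 CPM. These 4 are printed for the largest ratios of the list, all from before therapy, so a narrower gap later partly follows from that choice. Before therapy all 4 reached 5 CPM only in the responder library, so they entered the count through their high side. The ratio of TIGIT was higher after therapy than before. So were those of KLRG1, at 0.73 and 1.52, CD244, at 0.79 and 1.23, and CD300A, at 0.26 and 1.05. CTLA4 (0.01 and 0.51), CD5 (-0.23 and 0.49) and LILRB1 (-0.44 and 0.09) also rose, while the rest of the list was lower after therapy. KLRG1, CD244, PDCD1 and CD300A were the 4 past 2-fold after therapy. KLRG1, CD244, CD300A, CD5 and LILRB1 are named after their values were seen.

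A part of the costimulatory receptors and ligands, the functional class of CD226, was also higher in the responder libraries. Of 16 genes at 5 CPM, 6 passed 2-fold on the responder side before therapy, beside 11.5% of all genes, and none on the other side, beside 8.92%. CD40LG, among these 6, reached 5 CPM only in the responder library, at 5.14 against 2.55 CPM. After therapy 2 of 14 were higher, SLAMF6 and TNFRSF9, beside 5.79%, and none lower, beside 8.85%. Ratios were above 0 for 13 of 16 before and 11 of 14 after therapy, beside 53.4% and 55.1% of all genes. Scaled by CD3 and CD8 counts, 4 were at least 2-fold higher and 1 lower before therapy, beside 862 and 1921 of 12355 genes on that scale. After therapy 1 was higher and 1 lower, beside 198 and 2375 of 12631. The median log2 ratio was 0.75 before and 0.64 after therapy. Scaled by CD3 and CD8 counts it was 0.42 and 0.14, beside -0.25 and -0.45 for all genes. SLAMF6, a receptor of the SLAM family found on stem-like and memory CD8 cells, had 283 CPM (responder) and 90.9 CPM (non-responder) before therapy, and 435 and 125 CPM after it. SLAMF1 was closer to the pattern of CD226, with log2 ratios of 1.70 and 0.35. SLAMF7 had 1.48 and 0.99, and TNFRSF9, also called 4-1BB, had 1.41 and 1.32. The inhibitory and costimulatory medians lay close to each other at both times.

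**Figure D4:**
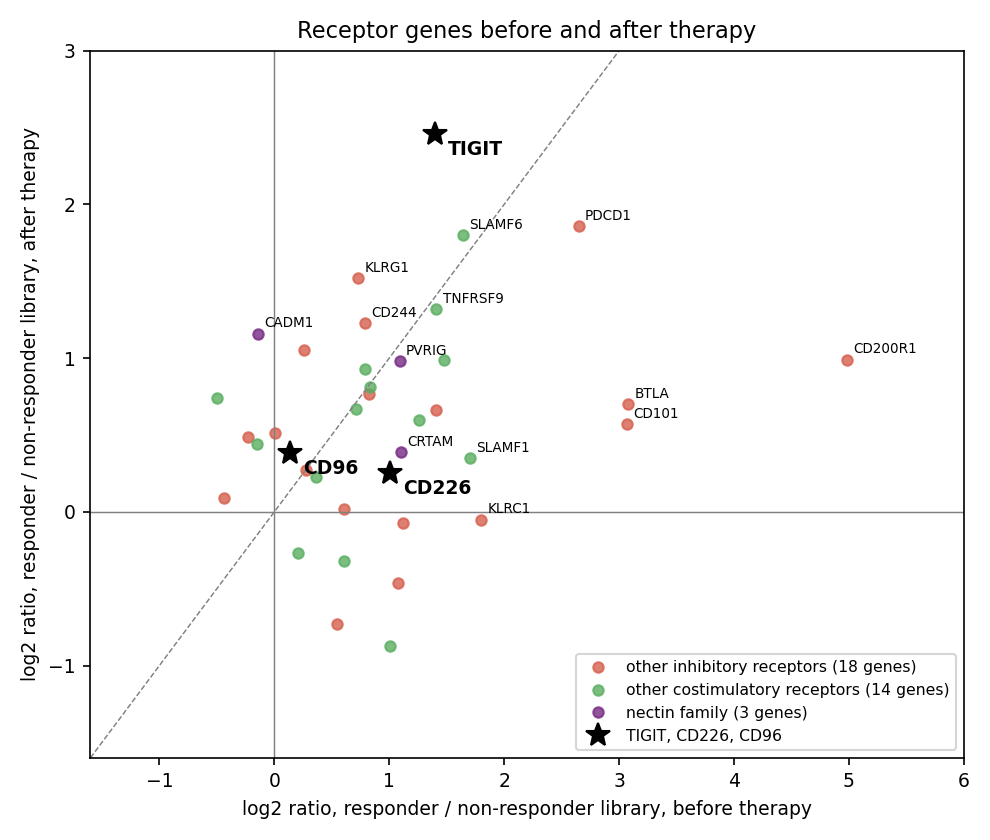
Log2 ratio of the responder to the non-responder library before therapy on the horizontal axis and after therapy on the vertical axis, 1 point per gene with at least 5 CPM in both pairs, for inhibitory receptors, costimulatory receptors, nectin family genes and the 3 members (stars). The dashed line marks equal ratios. TIGIT lies above it at 1.40 and 2.46, CD226 below it at 1.01 and 0.25, and CD96 near the origin at 0.14 and 0.38.

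NK cells express all 3 receptors, and NK markers were not at 0. The 12 NK markers summed to 1313 CPM (responder) and 1075 CPM (non-responder) before therapy, and to 1409.8 and 1301 CPM after it. The sum after therapy in the non-responder held 276 CPM of FCER1G and 273 CPM of TYROBP, which myeloid cells also express. Without these 2 genes, a choice made after seeing the data, the other 10 summed to 1198 and 983 CPM before and 1298 and 752 CPM after therapy. That sum has the order of TIGIT over the 4 libraries, but most single markers do not. From before to after therapy in the responder, 4 of 11 NK markers at 5 CPM were above 0, beside 54.6% of all genes. Their median log2 ratio in that pair was -0.29, beside 0.07 for all genes. After therapy 8 of 11 NK markers at 5 CPM had a log2 ratio of responder to non-responder above 0, beside 55.1% of all genes. Their median was 0.67, beside 0.07 for all genes, or 0.18 when scaled by CD3 and CD8 counts, beside -0.45. KLRF1 had 207 CPM (responder) and 102 CPM (non-responder) then, and FCGR3A, the CD16 gene, 277 and 140.1 CPM. NCAM1, the CD56 gene, lay between 4.26 and 10.1 CPM, and KIR2DL4 had 0 counts in the late non-responder library. Cytotoxic CD8 T cells express many of these genes too, and the part of NK RNA in the receptor levels was not tested. B cell markers summed to 63.6 to 92.2 CPM, gamma-delta T cell genes to 493 to 596 CPM and MAIT cell genes to 137 to 258 CPM. Within these, TRDC, the constant chain of the delta receptor, stood at 60.6 and 83.2 CPM before therapy and at 93.9 and 25 CPM after therapy in the responder and the non-responder. TRGV9 went the other way after therapy, at 36.4 and 75.2 CPM. Of the 4 gamma-delta genes at 5 CPM then, 2 had a log2 ratio above 0, with a median of 0.19, beside 0.07 for all genes. The 4 CD4 T cell markers summed to 19.2 CPM in each library before therapy and to 22.7 and 115 CPM after therapy. CD4 itself, which monocytes also express, stood at 94.7 CPM in the last of these.

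By position, TIGIT and CD96 lie on chromosome 3 and CD226 on chromosome 18. No gene in the files overlaps TIGIT. The span of CD226 overlaps the end of DOK6, which held 0.432 to 4.60 CPM. The span of CD96 holds 5 smaller entries. Of these, ZBED2, a zinc finger gene, had 190 and 4 counts in the responder and non-responder before therapy and 184 and 36 after it, and RP11-402J7.2 lay between 4.21 and 8.25 CPM. The other 3, RP11-615J4.3, ATP6V0CP2 and RP11-615J4.4, held at most 3 counts in a library. The strand setting of the counting is not given, and each of these entries is small beside the 295 to 538 CPM of CD96.

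Of 11 neighbouring genes of TIGIT within 500 kb with at least 1 CPM, none had a log2 ratio above 0.94 after therapy, beside 2.46 for TIGIT. Before therapy 3 of them exceeded the 1.40 of TIGIT, ZNF80 at 3.44, ZDHHC23 at 2.65 and RP11-553L6.2 at 1.49. The nearest with at least 1 CPM, RP11-553L6.5, ZBTB20 and ZNF80, had log2 ratios of responder to non-responder after therapy of 0.15, -0.33 and 0.22. ZNF80 had 17.9 against 1.64 CPM before therapy. Near CD226, RTTN had ratios of -1.04 before and 0.47 after therapy and SOCS6 had no count in the non-responder before therapy. Close to CD96, NECTIN3 lies 17.2 kb away, at 1.12 to 2.50 CPM, and PLCXD2 had ratios of -1.64 and -1.09.

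The profile of each member over the 4 libraries was compared with those of 9788 genes of at least 10 CPM on average, as the root mean square difference of centred log2 levels. The nearest gene to TIGIT was TSPAN5, at 0.279 log2 units, followed by DYRK1B, ZNF420, PRF1 and ZSCAN30, the last at 0.359. PRF1, the gene of perforin, stood at 1613 and 685 CPM before therapy and at 1488 and 465 CPM after therapy. The closest genes to CD226 lay at 0.021 to 0.038 (TBC1D22B, ZNF195, MTHFS, TXNDC5 and AC005523.2). Those to CD96 lay at 0.017 to 0.038 (METTL18, BIRC6, VBP1, SEC24C and ANP32E). The measure is not scaled to the spread of a gene, and TIGIT varied most among the members on the log2 scale. Its larger distances therefore do not show that it lacks a match. The members were not near one another by this measure. CD226 and CD96 differed by 0.313, and TIGIT differed from CD226 by 0.830 and from CD96 by 0.911. With 4 libraries such likeness is a description only.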

How the data were processed

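The authors deposited raw counts per Ensembl gene, 1 file per library, with 64253 rows, per the file headers and the whole-number values. Per the labels' protocols, the SMARTer Ultra Low kit amplified 1 ng of RNA, and reads were 101-base pairs. Per the submitters' processing notes, bcl2fastq 1.8.4 and TopHat2 were used with hg38. For the counter, its strand setting and the annotation: not given in the sources used here. No molecular identifiers are stated, so intervals and floors (3 counts) cover counting error only.

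Left out were 4146 genes on alternate or unplaced contigs and 617 sex-informative genes. Totals per library were 78912300, 65500644, 129773591 and 115446087 counts for the responder and non-responder before and after therapy. Symbols, coordinates and lengths are those of the files. The length column is named a coding length, but 34.2% of its values are multiples of 3, so it was read as exon length. The reference at hand was of mouse, and no sequence was printed.

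Counts were scaled by TMM over genes kept by filterByExpr. Ratios between libraries used a prior count of 0.5 with exact conditional binomial 95% intervals, levels exact Poisson intervals, and ratios within a library exact binomial intervals. Ratios of such ratios have exact conditional odds ratio intervals. The additive fit of response and time used edgeR 4.0.16 in R 4.3.3, filterByExpr, the two-sided quasi-likelihood test and Benjamini-Hochberg adjustment at 0.05 across all genes, with a common biological coefficient of variation of 0.66. Its printed SE is the size of the log2 ratio divided by the root of F. DESeq2 1.42.0 and limma 3.58.1 (voom) were alternatives. The fit was tested on simulated data.

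Named genes are the members, all nectin family genes and sort markers, up to 4 per other list with the largest ratio of responder to non-responder, the overlapping or neighbouring genes within 500 kb, and the 5 of nearest profile per member. PVRIG2P, EOMES, BATF, FOXP3, NCAM1, KIR2DL4, KLRF1, FCGR3A, KLRG1, CD244, CD300A, CD5 and LILRB1 were added after their values were seen, and not all genes taken by the rule are printed. The members and the 15 lists (162 entries, all found) were chosen with earlier results of these data known. The list of inhibitory receptors holds SIRPG and ENTPD1, and that of costimulation holds CD40LG and CD58, which are not receptors of that kind.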

Additional observations from a re-analysis of the deposited data

Results flagged for a closer look

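Opposite directions in the responder and non-responder libraries, or before and after therapy, flagged the following values. Each rests on 1 library per group, and the difference was not tested. TIGIT had a log2 ratio of after to before therapy of 0.53 in the responder and -0.53 in the non-responder libraries. After minus before therapy, the log2 count ratio of TIGIT to CD226 stood at 0.40 in the responder and -1.41 in the non-responder libraries, and that of CD96 to CD226 at 0.60 and -0.40. For TIGIT plus CD96 to CD226 the values were 0.53 and -0.53. Between responder and non-responder, the log2 ratio of CD96 to CD226 was -0.87 before and 0.12 after therapy, and that of the summed ratio was -0.56 and 0.50.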

How the results depend on the processing

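Depth does not limit these values: each member had at least 1698 counts in every library. The limit is the single library in each group, which no interval covers. Leaving out 1 library leaves no residual degree of freedom and gives a value with no test: the response log2 ratio then lay between 1.40 and 2.46 for TIGIT and between 0.25 and 1.01 for CD226, and the time log2 ratio between -0.53 and 0.53 for TIGIT and between 0.13 and 0.88 for CD226. The response ratios of 2.46 for TIGIT and 0.25 for CD226 came without either library from before therapy, and those of 1.40 and 1.01 without either from after therapy. The time ratios of -0.53 and 0.88 came without either responder library, and those of 0.53 and 0.13 without either non-responder library. For CD96, both the response and the time ratio stayed within 1 SE of the value over 4 libraries when any library was left out.

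With the summed CD3 and CD8 counts as scale, the response ratio of CD96 turned to -0.13, its pair ratios to -0.15 before and -0.12 after therapy, and that of CD226 after therapy to -0.24. With library size alone, the time ratio of TIGIT turned to -0.07. TIGIT passed the threshold for response with DESeq2, at 1.91, and under no other alternative. Genes called for response numbered 0 in edgeR's quasi-likelihood test, under each other scaling and filter and in limma-voom, and 903 with DESeq2. For time they numbered 0 in the main edgeR test, 2 with no filter, 38 at 10 CPM or more, 2 with limma-voom and 1509 with DESeq2. With a minimum of 1 CPM, genes at least 2-fold apart numbered 5248 before and 3769 after therapy between responder and non-responder, and 3587 and 5942 over time in the responder and non-responder libraries, since more low genes enter. The ratios to CD226 kept their direction with a prior count of 0.5 or 2 and per exon length, where library scaling does not enter.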
